A study of Mus musculus with 6 samples.

Results

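The genes described here are 10 enzymes and cofactors that write, copy or remove chromatin marks in hepatocytes: Uhrf1, Dnmt1, Dnmt3a, Dnmt3b, Tet2, Tet3 and Hells of the DNA methylation system, and Ezh1, Ezh2 and Suz12 of Polycomb repressive complex 2 (PRC2). They were matched by versioned Ensembl identifier among the 55450 genes of GENCODE release M21 in the count files. The 10 genes were chosen by name after their differences between these same 0 h and 48 h libraries were known, so those differences are given as a description with no p-value, and where the call of a member is stated it says only on which side of the threshold used for all genes it lay and is not evidence. The data are 6 bulk RNA-Seq libraries of primary hepatocytes from C57BL/6 mice (the study's methods give the substrain C57BL/6J), labelled as 10 to 12 weeks old at surgery and fed a normal diet. The study's methods give a somewhat younger age range at surgery than the labels. In the 0 h group (3 libraries), hepatocytes came from undamaged liver, and in the 48 h group (3 libraries) from liver 48 h after partial hepatectomy (PHx), the removal of most of the liver mass. The study used male mice and isolated the cells by 2-step collagenase perfusion. No sham-operated group was analysed, so the effects of surgery and of regrowth cannot be told apart.

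DNA methylation at CpG sites is symmetrical on both strands, and each round of replication leaves the new strand unmethylated. Uhrf1 is a ubiquitin ligase that binds such half-methylated CpG sites behind the replication fork and brings in Dnmt1, the methyltransferase that copies the mark, while Hells is a chromatin remodeler needed for normal methylation. Dnmt3a and Dnmt3b place methylation at new sites, and the TET dioxygenases Tet2 and Tet3 oxidize methylcytosine as a step toward its removal. PRC2 methylates lysine 27 of histone H3 (H3K27), with either Ezh1 or Ezh2 as its catalytic subunit and Suz12 as a core subunit. Ezh2 is known mainly from dividing cells and Ezh1 from resting cells, and adult hepatocytes are resting cells that re-enter the cell cycle after PHx.

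Each library held 31419443 to 36346220 reads counted on genes, at which 3 counts correspond to 0.0839 to 0.102 CPM, the count scaled by the library total and the trimmed mean of M-values (TMM) factor. The members had between 13 and 4017 counts per library, so all of them stood above this floor, which covers counting error only, and each passed the filter on low counts by its 0 h libraries alone. Between 24.3% and 32.7% of the reads listed for a library were assigned to no gene. The 14 hepatocyte markers, which include Alb and Ttr, were all detected, and their CPM summed to 120300 to 141700 at 0 h and to 81930 to 98030 at 48 h, with 1 gene called higher and 7 lower. Endothelial markers fell for 13 of 14 genes, with log2 fold changes from -1.51 to -0.45 over the whole list, and their CPM summed to 304.5 to 472.8 at 0 h and to 216.0 to 240.5 at 48 h. The 12 Kupffer cell markers summed to 83.1 to 124.2 CPM at 0 h and to 119.4 to 146.8 CPM at 48 h, with 3 genes called higher and log2 fold changes from -0.34 to 3.19 (Marco). Among the 12 lymphocyte and pan-leukocyte markers, which summed to 8.21 to 12.4 and 10.4 to 13.0 CPM, the 3 genes with enough counts to test had log2 fold changes of -0.04 to 0.14, and Ms4a1 and Klrb1c were at 0 in the 48 h libraries. The 9 neutrophil markers, too few in counts to test, summed to 0.0904 to 0.409 CPM at 0 h and to 0.654 to 1.06 CPM at 48 h without overlap, with Mpo, Ltf and Retnlg at 0 in all 6. These sums rest on 3 to 12 counts per library at 0 h and 22 to 38 at 48 h, mostly of Camp and Elane. S100a9 went the other way, with 3 counts in 0 h replicate 1 and 0 at 48 h. The 10 stellate cell markers summed to 79.3 to 130.9 CPM at 0 h and to 73.1 to 87.98 CPM at 48 h, and the 8 cholangiocyte markers to 35.03 to 63.2 and 46.9 to 58.6 CPM, with 1 higher gene in each list and 1 lower gene in the stellate list. The part of these other cells in the members' values was not tested, and in bulk samples fewer cells of a type and less RNA per cell cannot be told apart.

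The clearest pattern among the members was that the copying arm of DNA methylation and Ezh2 stood higher at 48 h, whereas the de novo, TET and Ezh1 transcripts stood at or below their resting level. For 5 members each 48 h library exceeded each 0 h library, for 4 each was lower, and for 1 the groups overlapped. Over the 17037 genes tested, 27.8% lay wholly above and 25.0% wholly below. At a Benjamini-Hochberg adjusted p under 0.05 in the quasi-likelihood test of edgeR, 5 of the 10 members were called higher and 4 lower, against 21.4% and 19.3% of all genes tested. These counts rest on the contrast that chose the members. With scaling by library size only, the split was 5 higher and 1 lower, since the median of all genes moved by 0.20 on the log2 scale.

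**Figure D1:**
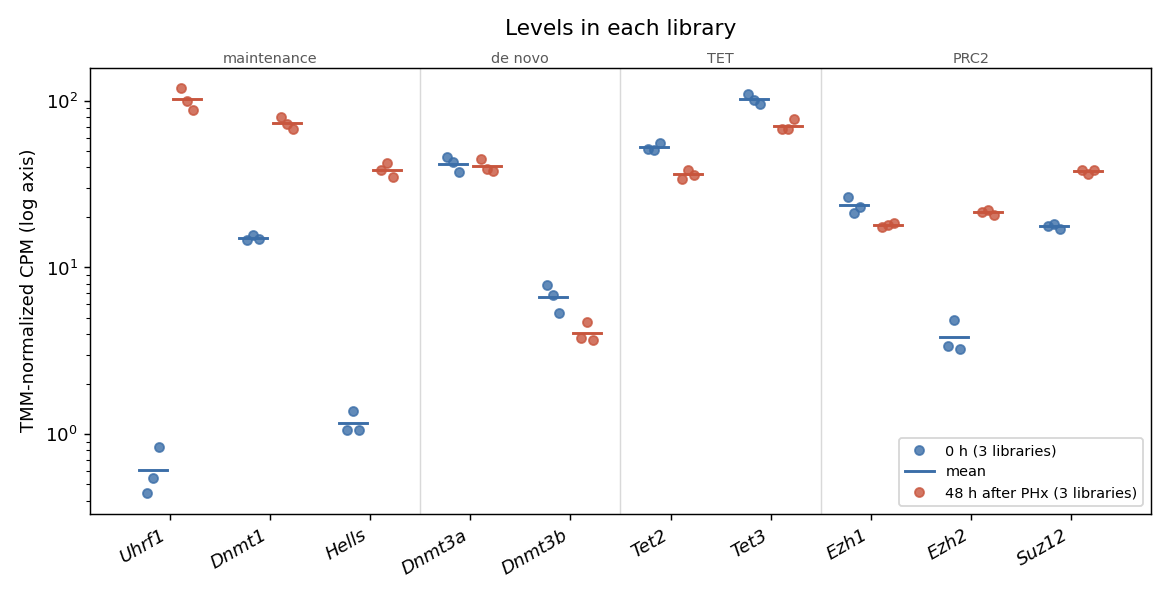
TMM-normalized CPM (log axis) of the 10 genes in each of the 6 libraries, grouped by role, with 0 h in blue, 48 h after PHx in red and a line at each group mean. Uhrf1 has the widest gap between the time points, Dnmt3a overlaps between the time points, and Ezh1 and Ezh2 move in opposite directions.

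Uhrf1 (ENSMUSG00000001228.14, chromosome 17, 56303321 to 56323486, GRCm38) stood at 0.443, 0.548 and 0.844 CPM in 0 h replicates 1, 2 and 3. At 48 h it stood at 119.4, 98.9 and 88.1 CPM. It was close to silent in every library of undamaged liver and stood at 88.1 CPM or more in every library at 48 h, with no overlap. The mean CPM was 167-fold higher at 48 h, and the log2 fold change was 7.36 (standard error 0.218). Of the 17037 genes tested, 11 had a larger log2 fold change, so that Uhrf1 ranked 12 from the top. Its promoter is shown here because the gene had the largest increase of the members. RefSeq lists 2 start sites for Uhrf1, and the 250 bases before the one with more CpG (GRCm38.p6, chr17:56304063-56304312, plus strand) overlap no annotated exon of the gene. The capitals mark an E2F-type motif, the letters that E2F cell cycle transcription factors are known to bind, which began 185 bases before the start site:
Uhrf1: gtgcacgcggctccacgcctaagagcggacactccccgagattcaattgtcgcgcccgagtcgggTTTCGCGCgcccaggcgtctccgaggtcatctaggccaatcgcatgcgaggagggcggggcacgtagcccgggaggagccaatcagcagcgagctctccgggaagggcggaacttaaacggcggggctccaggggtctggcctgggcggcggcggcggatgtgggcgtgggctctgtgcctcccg

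Dnmt1 (ENSMUSG00000004099.16, chromosome 9, 20907209 to 20959888), the maintenance methyltransferase, was already present at 14.6, 15.6 and 14.8 CPM at 0 h. At 48 h it reached 79.6, 72.1 and 68.0 CPM, and the groups did not overlap. Its mean was 4.88-fold higher, a log2 fold change of 2.29 (standard error 0.106), far smaller than that of Uhrf1. Hells (ENSMUSG00000025001.11, chromosome 19, 38930915 to 38971051) stood at 1.06, 1.39 and 1.06 CPM at 0 h and at 38.5, 42.5 and 34.99 CPM at 48 h. This remodeler, like Uhrf1, was low in each 0 h library and did not overlap between the groups, and its log2 fold change was 5.05 (standard error 0.160). Within the 48 h group, replicate 1 had the highest Uhrf1 and Dnmt1 and replicate 2 the highest Hells, while replicate 3 had the lowest value of all 3 genes.

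The transcripts of the de novo enzymes did not share this pattern. Dnmt3a (ENSMUSG00000020661.15, chromosome 12, 3806007 to 3914443) stood at 45.8, 43.1 and 37.1 CPM at 0 h and at 44.7, 38.8 and 38.1 CPM at 48 h. The groups overlapped, and the log2 fold change was -0.05 (standard error 0.115), turning to 0.15 with scaling by library size only and to 0.01 without 0 h replicate 1. Dnmt3b (ENSMUSG00000027478.15, chromosome 2, 153649450 to 153687730) was at 7.84, 6.87 and 5.31 CPM at 0 h and 3.77, 4.70 and 3.69 CPM at 48 h. All 48 h libraries lay below all 0 h libraries, and the log2 fold change was -0.72 (standard error 0.191). The call was lost with library size only, where the value was -0.51, and without 0 h replicate 1, where it was -0.59. Dnmt3c, a close copy of Dnmt3b in rodents, had 0 counts in each 0 h library and at most 2 counts at 48 h. Since the files list no multiply aligned reads, reads that fit both genes could have been lost before counting.

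The ratio of Dnmt1 to the sum of Dnmt3a and Dnmt3b, taken within each library on counts per kilobase of exon, does not depend on the scaling of libraries. It was 0.462, 0.539 and 0.612 at 0 h and 3.15, 3.0 and 3.06 at 48 h. De novo transcripts thus outnumbered Dnmt1 in every library at 0 h, and Dnmt1 outnumbered them in every library at 48 h. The mean log2 ratio was -0.91 ± 0.203 (SD, n = 3) before PHx and 1.62 ± 0.0348 (SD, n = 3) after it, a difference of 2.52 (standard error 0.119). The ratio of Uhrf1 to Dnmt1, 2 proteins that act together at the fork, was 0.0525, 0.0607 and 0.0990 at 0 h. It was 2.6, 2.38 and 2.24 at 48 h, so that Uhrf1 went from far below Dnmt1 to above it. The difference was 5.14 on the log2 scale (standard error 0.283).

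**Figure D2:**
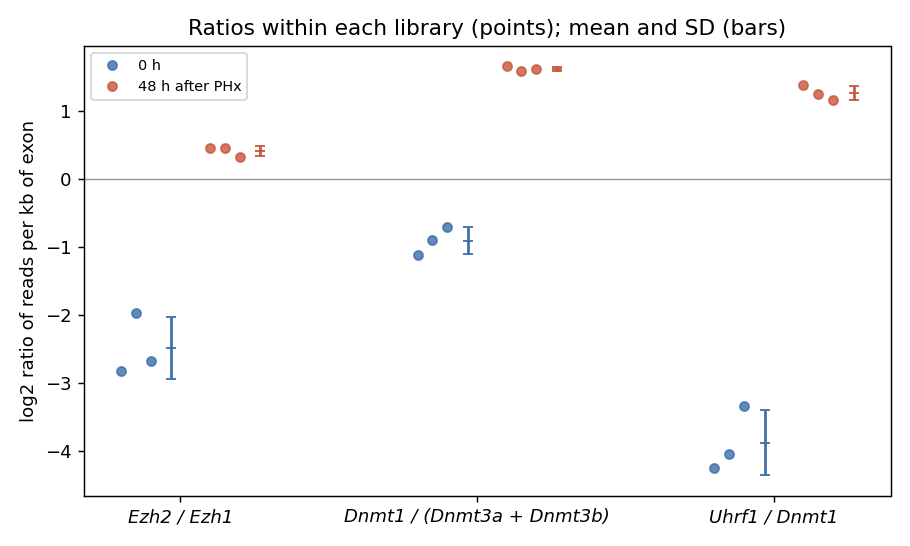
Log2 ratios of counts per kilobase of exon within each library (points; 0 h blue, 48 h after PHx red), with the mean and SD of 3 libraries as bars beside them. All 3 ratios lie below 0 in every 0 h library and above 0 in every 48 h library.

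Transcripts of the TET genes, well detected in undamaged liver, were lower at 48 h. Tet2 (ENSMUSG00000040943.12, chromosome 3, 133463679 to 133545139) stood at 51.2, 50.8 and 55.9 CPM at 0 h and 33.9, 38.4 and 36.1 CPM at 48 h. Tet3 (ENSMUSG00000034832.15, chromosome 6, 83362373 to 83459084) stood at 110.0, 100.6 and 95.2 CPM at 0 h and 67.6, 67.5 and 77.2 CPM at 48 h. Neither gene overlapped between the time points, and their log2 fold changes were close, at -0.54 (standard error 0.0995) for Tet2 and -0.53 (standard error 0.11) for Tet3. With library size only these became -0.34 and -0.32, and the call of Tet3 was lost. Tet1, the third TET gene, had 1 to 5 counts per library, too few to test.

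In PRC2, the alternative catalytic subunits exchanged rank. Ezh2 (ENSMUSG00000029687.16, chromosome 6, 47530139 to 47595341) stood at 3.37, 4.84 and 3.26 CPM at 0 h and 21.7, 22.2 and 20.7 CPM at 48 h. Its mean was 5.63-fold higher, a log2 fold change of 2.49 (standard error 0.165) without overlap. Ezh1 (ENSMUSG00000006920.14, chromosome 11, 101191115 to 101226463) stood at 26.6, 21.1 and 23.2 CPM at 0 h and 17.5, 18.03 and 18.4 CPM at 48 h. The Ezh1 libraries did not overlap either, and the log2 fold change was -0.39 (standard error 0.117). This difference was small beside that of Ezh2, and its call was lost with library size only (-0.19), without 0 h replicate 1 (-0.31), without 48 h replicate 1 (-0.38) and without 48 h replicate 2 (-0.39). Suz12 (ENSMUSG00000017548.15, chromosome 11, 79993106 to 80034123), which both forms of the complex share, stood at 17.8, 18.3 and 17.03 CPM at 0 h and 38.3, 36.5 and 38.6 CPM at 48 h. It was 2.14-fold higher, a log2 fold change of 1.09 (standard error 0.0977), so that its difference lay between those of the catalytic subunits.

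The ratio of Ezh2 to Ezh1 per kilobase of exon was 0.141, 0.256 and 0.156 in the 0 h libraries and 1.38, 1.37 and 1.25 in the 48 h libraries. Ezh1 transcripts were the more abundant in each 0 h library and Ezh2 transcripts in each 48 h library. As a share of both genes, Ezh2 took a mean of 15.4% at 0 h and 57.1% at 48 h. On the log2 scale, means were -2.49 ± 0.458 (SD, n = 3) before PHx and 0.41 ± 0.0784 (SD, n = 3) after it, a difference of 2.90 (standard error 0.268). With the length of the longest transcript in place of all exons the means were -2.05 and 0.85, and with no length correction -2.65 and 0.26, on the same sides of 0. The spread at 0 h came mostly from replicate 2, which had the highest Ezh2 and the lowest Ezh1, and without it the difference was 3.16.

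**Figure D3:**
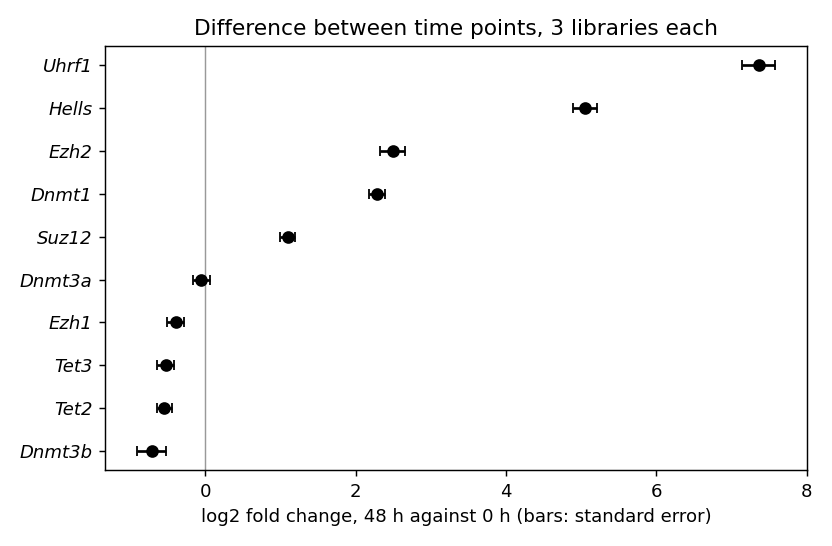
Log2 fold change of each gene at 48 h against 0 h, with its standard error as a bar (3 libraries per time point). Values run from -0.72 for Dnmt3b to 7.36 for Uhrf1, and Dnmt3a sits at -0.05.

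As reads per kilobase of exon in normalized counts (RPKM, computed here as CPM divided by exon length), the order of levels at 0 h ran from Tet3 at 6.11 ± 0.451 (SD, n = 3) through Suz12 at 3.58 ± 0.131, Ezh1 at 3.18 ± 0.377, Tet2 at 3.12 ± 0.170 and Dnmt3a at 2.53 ± 0.266. It continued with Dnmt1 at 2.04 ± 0.0751, Dnmt3b at 1.31 ± 0.2501, Ezh2 at 0.572 ± 0.132, Hells at 0.162 ± 0.0266 and Uhrf1 at 0.144 ± 0.0488. The libraries of Suz12 and Ezh1, of Ezh1 and Tet2, and of Hells and Uhrf1 overlapped, so these neighbors were not separated. At 48 h the order was Uhrf1 at 23.98 ± 3.73 (SD, n = 3), Dnmt1 at 9.93 ± 0.801, Suz12 at 7.65 ± 0.236, Hells at 5.36 ± 0.519 and Tet3 at 4.24 ± 0.335. Below them came Ezh2 at 3.22 ± 0.116, Dnmt3a at 2.44 ± 0.217, Ezh1 at 2.42 ± 0.0589, Tet2 at 2.14 ± 0.132 and Dnmt3b at 0.794 ± 0.1102, with Dnmt3a and Ezh1 overlapping. With the longest transcript as the length, Tet3 stayed first and Uhrf1 last at 0 h, and Uhrf1, Dnmt1 and Suz12 stayed the first 3 at 48 h, but Suz12 moved to rank 5 at 0 h and Ezh2 to rank 4 at 48 h. Genes on the other strand overlap 3.60% of the exon bases of Suz12, 2.61% of Ezh2, 0.799% of Dnmt3a and 0.255% of Tet2. Whether the counting used strand is not given in the sources used here, so reads of those partners could be included.

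The windows of 300 bases around the RefSeq start sites (250 before and 50 after, GRCm38.p6), available for all 10 members, were searched on both strands for the E2F-type letters TTTCCCGC, TTTCGCGC, TTTGCCGC and TTTGGCGC. The motif was searched because several members with higher levels at 48 h are known S phase genes, so it was chosen with their values known. Its match with the calls is therefore a description, and control by E2F was not tested. The letters were present in 5 of the 10 members, and these were Uhrf1, Dnmt1, Hells, Ezh2 and Suz12, the same 5 that were called higher. Of all 32851 promoter windows, 2.26% held them, and of the 7588 windows with at least 22 CpG, the lowest number among the members' CpG-rich windows, 5.27% did. Counted by gene over all start sites, as for the members, 2.6% of 27025 genes held them. No other start site of a member held these letters. The matches are shown with 10 flanking bases on each side where the window reaches, 5′ to 3′ on the strand of the gene, with the motif in capitals (in the first Dnmt1 window it lies on the opposite strand). The stretches shown for Dnmt1, Hells and Ezh2 lie wholly in annotated exon, and those of Uhrf1 and Suz12 outside it. The Ezh2 motif and the second Dnmt1 motif begin 3 and 33 bases after the start site. The windows lie at chr17:56304118-56304145 for Uhrf1, chr9:20952825-20952852 and chr9:20952574-20952600 for Dnmt1, chr19:38930918-38930945 for Hells, chr6:47595010-47595037 for Ezh2 and chr11:79992877-79992904 for Suz12:
Uhrf1: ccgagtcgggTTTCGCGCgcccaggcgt
Dnmt1, first: gtttccgcgcGCGCGAAAaagccggggt
Dnmt1, second: cggggcagcgTTTGGCGCgggctgtgc
Hells: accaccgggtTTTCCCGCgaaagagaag
Ezh2: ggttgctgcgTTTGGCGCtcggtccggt
Suz12: gacccctcatTTTCCCGCgaattcagtt

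For contrast with Ezh2, the 250 bases before the start site of Ezh1 (GRCm38.p6, chr11:101226464-101226713, minus strand) held none of these letters, nor did its 50 bases after the start:
Ezh1: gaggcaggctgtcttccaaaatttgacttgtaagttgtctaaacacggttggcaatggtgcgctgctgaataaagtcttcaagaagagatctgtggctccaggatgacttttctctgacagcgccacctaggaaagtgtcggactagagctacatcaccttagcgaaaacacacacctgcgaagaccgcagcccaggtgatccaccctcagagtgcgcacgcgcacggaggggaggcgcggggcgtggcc

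Other promoter motifs, counted in the CpG-rich window of each member, were each found in both sets of members. The CCAAT box was mostly in members called higher. The CCAAT box (letters CCAAT) was in the CpG-rich window of 5 members, 4 of them called higher, and in 37.4% of all windows and 31.9% of the 7588 with at least 22 CpG. The GC box (GGGCGG) was in 8 members, 4 of them called higher, and in 35.7% of all windows but 82.6% of the CpG-rich ones, so the members' share was close to that of windows like theirs. The cell cycle genes homology region (TTTGAA or TTTAAA) was in 3 members, 2 of them called higher, and in 27.6% of all windows and 9.75% of the CpG-rich ones. Windows of Dnmt1 with less CpG held it as well. A match of letters is no measurement of binding.

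The other genes of these pathways were counted from lists drawn up by role, leaving out the members. These lists were made with earlier results of these data known and include replication genes such as Pcna and Lig1. The shares below are therefore a description and no independent support. Of 78 listed genes, 74 had enough counts to test. At 48 h, 34 (45.9%) were higher and 8 (10.8%) lower, with a median log2 fold change of 0.27, against 21.4% and 19.3% of all 17037 genes and a median of -0.00326. With a fold change of at least 2 also required (1 on the log2 scale), 11 were higher and 2 lower. Each adjusted p given below is from that edgeR fit over all genes tested, unless another scaling or a left-out library is named with it.

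Among 28 readers and partners of DNA methylation, 25 were tested, of which 11 were higher and 3 lower. Lig1, the replicative DNA ligase whose methylated tail Uhrf1 binds, went from 1.64, 1.19 and 1.90 CPM at 0 h to 33.9, 36.3 and 36.2 CPM at 48 h (log2 fold change 4.49, standard error 0.165, adjusted p = 3.92e-08). Pclaf, the PCNA-associated factor that Uhrf1 ubiquitinates, rose from 0.429 ± 0.188 (SD, n = 3) to 6.98 ± 0.743 CPM (log2 fold change 4.02, adjusted p = 2e-06), and Pcna, the sliding clamp, from 7.61 ± 0.328 to 50.5 ± 4.59 CPM (2.73, adjusted p = 7.6e-08). Cdca7, which binds Hells and directs it to chromatin, rose from 0.932 ± 0.0505 to 5.92 ± 0.620 CPM (2.66, adjusted p = 3.7e-06). Its paralog Cdca7l had 2 to 4 counts per 0 h library, close to the floor, and stood at 2.31 ± 0.909 CPM (SD, n = 3) at 48 h. It is among the 11 called higher, but it was the 1 pathway gene that entered the test only through its 48 h counts, so its call is no support, and it could not be tested without a 48 h library. Zbtb24, a transcription factor that activates Cdca7, had a log2 fold change of -0.36 (adjusted p = 0.087) and passed without 48 h replicate 3 (-0.50, adjusted p = 0.0287) and with upper quartile scaling (-0.44, adjusted p = 0.0489).

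The paralog Uhrf2 behaved unlike Uhrf1, in that it was well expressed in undamaged liver. It stood at 34.99, 36.3 and 34.1 CPM at 0 h and 58.3, 57.5 and 51.9 CPM at 48 h, and its log2 fold change was 0.67, with a standard error of 0.0973 (adjusted p = 0.000374). In RPKM, Uhrf2 was at 4.09 ± 0.129 (SD, n = 3) in undamaged liver, above each Uhrf1 library, and at 6.51 ± 0.406 (SD, n = 3) after PHx, below each Uhrf1 library. Usp7, a deubiquitinase that binds Uhrf1 and Dnmt1, was at 79.5 ± 3.22 and 80.6 ± 4.65 CPM (SD, n = 3; log2 fold change 0.02, adjusted p = 0.884). Tdg, the glycosylase that removes oxidized methylcytosine, rose by 0.58 on the log2 scale (adjusted p = 0.00245). The methyl-CpG binding gene Mbd2 had a log2 fold change of 0.09 (adjusted p = 0.628). Of the other listed Mbd genes, named after their values were seen, Mbd3 rose by 0.84 (adjusted p = 0.000984) and Mbd4 by 1.61 (adjusted p = 0.00019). Mbd5 was at -0.36 (adjusted p = 0.0134), and Mbd1 and Mbd6 were not called. Gadd45g, a stress-inducible gene linked to growth arrest and to DNA demethylation, showed the largest decrease, from 60.9, 23.2 and 37.4 CPM to 11.6, 6.97 and 4.97 CPM (log2 fold change -2.37, standard error 0.361, adjusted p = 0.000503). Its relatives Gadd45a and Gadd45b, named after their values were seen, rose by 1.55 (adjusted p = 0.00498) and 2.52 (adjusted p = 0.000315). Dnmt3l, a cofactor of de novo methylation in germ cells, had 0 counts in all 6 libraries.

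Of 10 further PRC2 subunits, 6 were higher and 2 lower. Eed, the core subunit that binds methylated H3K27, rose from 9.71, 11.5 and 9.80 CPM to 16.4, 18.5 and 16.6 CPM (log2 fold change 0.73, adjusted p = 0.00104). Of the histone-binding pair, Rbbp7 rose by 0.88 (adjusted p = 0.000163) and Rbbp4 was at -0.05 (adjusted p = 0.733). Among the accessory subunits, Aebp2 rose by 0.70 (adjusted p = 0.000837), whereas Jarid2, its partner in the same subcomplex, was at -0.13 (adjusted p = 0.296). The Polycomb-like proteins, which recruit the other subcomplex, were split. Phf1 fell from 24.6, 29.3 and 26.0 CPM to 10.2, 13.2 and 14.6 CPM (log2 fold change -1.07, adjusted p = 0.000246) and Phf19 fell by 0.65 (adjusted p = 0.0096), while Mtf2 rose by 0.70 (adjusted p = 0.0171). The call of Mtf2 was lost without 0 h replicate 1 (0.66, adjusted p = 0.0549), 0 h replicate 3 (0.52, adjusted p = 0.0639) or 48 h replicate 1 (0.57, adjusted p = 0.0673).

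PRC1, the complex that ubiquitinates histone H2A, had 9 of 23 subunits higher and 2 lower. The lower genes were Cbx7 (log2 fold change -0.77, adjusted p = 0.00249), a chromodomain subunit that reads H3K27 methylation, and Ring1 (-0.65, adjusted p = 0.00237), a catalytic subunit. Rnf2, the other catalytic subunit, rose by 0.68 (adjusted p = 0.0032), Bmi1 by 0.52 (adjusted p = 0.00281) and the chromodomain gene Cbx2 by 0.57 (adjusted p = 0.0432). The call of Cbx2 was lost with upper quartile scaling (0.50, adjusted p = 0.055) and without 0 h replicate 2 (0.34, adjusted p = 0.0514) or without 48 h replicate 1, 2 or 3 (0.53, 0.65 and 0.54, adjusted p = 0.0969, 0.0534 and 0.0896).

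Of 6 genes for H3K27 demethylation and the histone H2A deubiquitinase complex PR-DUB, 5 were tested, with 2 higher and 1 lower. The demethylase Kdm6b fell from 113.5 ± 17.3 to 79.9 ± 11.5 CPM (SD, n = 3; log2 fold change -0.51, adjusted p = 0.0189), a call lost with library size only (-0.30, adjusted p = 0.154) and without 0 h replicate 1 (-0.41, adjusted p = 0.0727), 0 h replicate 3 (-0.49, adjusted p = 0.0536) or 48 h replicate 1 (-0.40, adjusted p = 0.0593). Kdm6a was at -0.07 (adjusted p = 0.651). Of 11 genes of histone H3 lysine 9 (H3K9) methylation and HP1, a heterochromatin mark that Uhrf1 also binds and its reader, 6 were higher, the median log2 fold change was 0.60 and the lowest was -0.18. The H3K9 methyltransferase Suv39h1 rose from 5.52, 3.81 and 4.46 CPM to 20.9, 24.5 and 18.9 CPM (log2 fold change 2.22, adjusted p = 4.07e-06) and its paralog Suv39h2 by 0.82 (adjusted p = 0.00795).

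**Figure D4:**
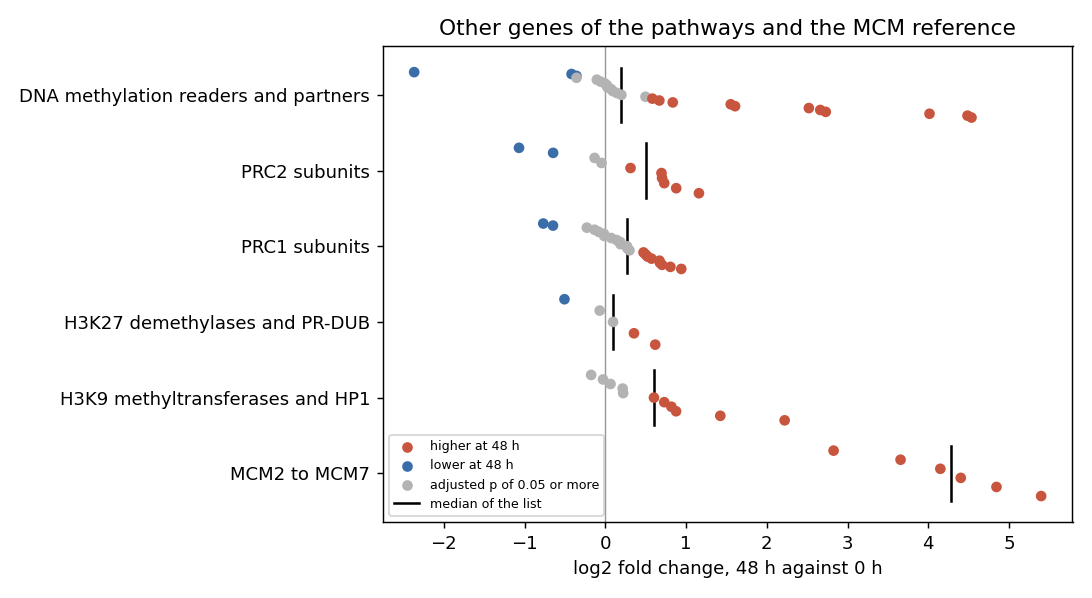
Log2 fold change at 48 h against 0 h of the tested genes in each list (1 point per gene, black line at the list's median), colored red where higher, blue where lower and gray where the adjusted p was 0.05 or more. The 6 MCM genes lie between 2.83 and 5.40, and most other genes of the methylation and Polycomb lists lie within 1 of 0.

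The 6 genes of the MCM helicase, which unwinds DNA at the replication fork, served as a reference for replication. All 6 were higher at 48 h, with log2 fold changes from 2.83 (Mcm7) to 5.40 (Mcm5) and a median of 4.28. The values of Dnmt1 (2.29) and Ezh2 (2.49) were below this range, that of Hells (5.05) within it and that of Uhrf1 (7.36) above it. Mcm5, for comparison, went from 1.91, 1.61 and 2.41 CPM at 0 h to 83.5, 86.0 and 81.8 CPM at 48 h.

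The genes most like Uhrf1, by Pearson's r of log2 CPM over the 6 libraries among the 7569 genes searched with a mean of at least 10 CPM, were Ncapg2, Cdc6, Dtl, Lin54 and Jak3, with r of 0.9991 to 0.9996. Cdc6 loads the MCM helicase at origins, Dtl is the substrate receptor of a ubiquitin ligase that acts on chromatin-bound PCNA, Ncapg2 is a condensin subunit, Lin54 binds DNA in the DREAM complex, and Jak3 is a cytokine receptor kinase. Their log2 fold changes ran from 1.13 (Jak3) to 6.52 (Cdc6), and r does not depend on their size. The 0 h means of Ncapg2, Cdc6, Dtl and Lin54 were 1.45, 0.276, 0.571 and 9.18 CPM, so these 4 entered the search only through their 48 h levels. For Ezh1 the 5 most similar genes were Osbpl1a, Eif4b, Adnp2, Rxrb and Xab2, with r of 0.9906 to 0.9946. In all, 852 genes had r over 0.95 with Uhrf1 and 154 with Ezh1. These values are descriptions over 6 libraries that fall into 2 time points and share their scaling, and they largely restate the contrast between those time points that chose the members.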

How the data were processed

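Hepatocyte RNA was measured by bulk RNA-Seq in 6 libraries, grouped by the time point in their labels. The authors deposited raw counts of reads per gene for each library, without normalization, in the layout of htseq-count. The submitters' processing notes name FastQC 0.11.5, Trim Galore 0.6.4, STAR 2.6, HTSeq 0.12.4, DESeq2 and mm10, and the settings are not given in the sources used here. The lines for unaligned and multiply aligned reads hold 0. All 55450 identifiers matched GENCODE M21 (GRCm38), which gave names, coordinates and exon lengths. Promoter sequences are from RefSeq (GRCm38.p6).

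Counts were tested with edgeR 4.0.16 (R 4.3.3; TMM, glmQLFit, glmQLFTest) in a model of time point alone. A gene entered, as 17037 did, if 3 or more libraries gave it 10 or more counts. P-values were adjusted by Benjamini-Hochberg, with a threshold of 0.05. Standard errors are the log2 fold change divided by the square root of F. Log2 CPM used a prior count of 2. The script was tested on simulated data. Each pair of libraries differed by far more than counting noise, and p-values measure the spread between these preparations. The alternatives were DESeq2 1.42.0, limma-voom (limma 3.58.1), other scalings, filters and thresholds, a replicate block and leaving out each library.

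The members, lists and motifs were chosen with earlier results of these data known. Besides the members, the text names pathway genes fixed by role, the 5 largest increases and 5 largest decreases among called pathway genes (mean of 1 CPM or more), the MCM genes, and the 5 genes most like Uhrf1 and Ezh1. 1 gene that this rule names is not reported here.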

Additional observations from a re-analysis of the deposited data

How the results depend on the processing

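The 3 within-library ratios kept their direction when a library was left out or values were summed by group. They moved by less than the SD pooled over the 2 time points. For Ezh2 to Ezh1 this SD was 0.329, and the differences over all alternatives were 2.74 to 3.16. The values were 0.146 and 2.41 to 2.62 for Dnmt1 to the de novo enzymes. They were 0.347 and 4.95 to 5.41 for Uhrf1 to Dnmt1. The 5 members called higher were called higher in each fit. Of the 4 called lower, 1 was left with library size only, 2 with an adjusted p under 0.01 and 0 with a log2 fold change of at least 1, and leaving out a library left 2 to 4. For the pathway lists, library size only gave 43 higher and 5 lower, an adjusted p under 0.01 gave 28 and 5, a log2 fold change of at least 1 gave 11 and 2, and leaving out a library gave 27 to 31 and 6 to 9. Over all genes, 3638 were higher and 3288 lower, against 5309 and 2108 with library size only, 3142 and 3924 with upper quartile scaling, 2407 and 2082 with an adjusted p under 0.01, and 1651 and 1353 with a log2 fold change of at least 1. The shift with library size only is that of the scaling itself, 0.20 at the median gene. DESeq2 called 33 pathway genes higher and 8 lower. The replicate block cannot move a ratio's mean difference in this balanced design (2.90, 2.52 and 5.14 with it), nor can exon length move that of a ratio of single genes. With the block, the numbers were 31 and 8 for the pathway lists, 5 and 4 for the members, and 3237 and 2884 for all genes. The labels give no pairing beyond the number, and libraries that share a number deviated from their group's mean with correlations of 0.0335, -0.0674 and -0.138. Counts limited Tet1, Dnmt3l, Dnmt3c and Asxl3, which were too few to test.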
